A study of Mus musculus with 50 samples.

Results

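The subject of this report is a set of H3K27me3 peaks that were listed in *Ezh2* R685C mouse embryonic stem cells (ESCs) and were absent from the wild-type (WT) lists. They were chosen by a rule on the ChIP-seq peak lists: a peak of the *Ezh2* R685C H3K27me3 list was kept as new when it shared no base with a peak of the WT H3K27me3 list or of the WT SUZ12 list. The rule kept 13683 of 22245 peaks on chromosomes 1 to 19, X and Y (61.5%). The 8562 other peaks lay on a WT peak and are the comparison used below. Being off the WT lists and being called in *Ezh2* R685C were therefore fixed by the choice and are not findings.

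All lines were derived by genome editing from E14, the mouse ESC line that served as WT. *Ezh2* KO cells lack the whole *Ezh2* gene, and *Ezh1/2* dKO cells lack both *Ezh1* and *Ezh2*. *Ezh2* Y726D and *Ezh2* R685C cells carry a point mutation of *Ezh2* in an *Ezh1* KO background, so their only EZH protein is the mutant EZH2. The paper reports that Y726D is catalytically inactive, with all forms of H3K27 methylation lost. For R685C it reports a rescue of H3K27me2 more than of H3K27me3. In a further sample, HA-tagged human EZH1 was put back into *Ezh1/2* dKO cells by transfection. Untransfected *Ezh1/2* dKO cells, which carry no tag, were its control. Each edited line goes back to a picked clone. For each line and target 1 list was used, so no difference between lines could be tested, and the intervals given with shares are Wilson 95% confidence intervals (CI) that cover counting error only. RNA-seq covered WT ESCs and the *Ezh2* Y726D, *Ezh2* KO and *Ezh1/2* dKO lines, each in 2 libraries, and not *Ezh2* R685C.

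PRC2 is the complex that methylates lysine 27 of histone H3, with EZH1 or EZH2 as its catalytic subunit and SUZ12 as a core subunit that marks where the complex sits. H3K27me3, the trimethylated form, is classically found at CpG-rich promoters of silent developmental genes, while H3K27me2 and H3K27me1 are spread more widely, the latter over transcribed gene bodies. H3K27ac occupies the same lysine at active promoters and enhancers.

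The sequences at the summits of some of the strongest new peaks are shown first, because they differ widely in CpG content, the feature that PRC2 target promoters usually share. Each is the plus strand of mm9, 300 bases centred on the summit, with every CpG in capitals. The first is the strongest new peak of the set, upstream of *Tmem125*. The *Fgfr2* peak lies at a transcription start site (TSS) and the *Zic4* peak in the gene, and the *Ddo* and *Gdpd5* peaks are intronic and nearly free of CpG.
Tmem125 peak, chr4:118219504-118219803: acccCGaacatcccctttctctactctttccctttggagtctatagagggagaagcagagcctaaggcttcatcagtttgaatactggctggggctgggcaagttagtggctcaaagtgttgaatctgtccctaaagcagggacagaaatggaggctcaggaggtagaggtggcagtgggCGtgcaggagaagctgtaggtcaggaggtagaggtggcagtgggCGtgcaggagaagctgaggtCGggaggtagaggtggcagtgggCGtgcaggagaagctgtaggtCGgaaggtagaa
Fgfr2 peak, chr7:137407231-137407530: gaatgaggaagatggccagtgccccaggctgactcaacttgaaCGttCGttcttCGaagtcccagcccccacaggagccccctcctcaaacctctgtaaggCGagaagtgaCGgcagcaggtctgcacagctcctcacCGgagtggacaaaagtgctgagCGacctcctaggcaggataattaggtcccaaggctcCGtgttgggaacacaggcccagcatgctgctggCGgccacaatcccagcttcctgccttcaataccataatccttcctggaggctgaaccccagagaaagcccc
Zic4 peak, chr9:91278950-91279249: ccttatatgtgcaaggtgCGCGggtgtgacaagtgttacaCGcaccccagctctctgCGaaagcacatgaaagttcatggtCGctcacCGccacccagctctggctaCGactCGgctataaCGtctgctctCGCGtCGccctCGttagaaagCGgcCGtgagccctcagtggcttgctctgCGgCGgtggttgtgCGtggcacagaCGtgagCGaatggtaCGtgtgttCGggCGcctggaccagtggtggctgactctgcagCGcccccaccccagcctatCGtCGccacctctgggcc
Ddo peak, chr10:40365620-40365919: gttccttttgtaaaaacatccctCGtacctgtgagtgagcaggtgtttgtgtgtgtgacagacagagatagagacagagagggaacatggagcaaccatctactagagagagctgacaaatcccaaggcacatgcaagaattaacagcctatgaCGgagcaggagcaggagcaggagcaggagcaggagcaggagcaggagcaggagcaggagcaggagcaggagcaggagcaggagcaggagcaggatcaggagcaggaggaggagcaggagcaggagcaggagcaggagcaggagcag
Gdpd5 peak, chr7:106560616-106560915: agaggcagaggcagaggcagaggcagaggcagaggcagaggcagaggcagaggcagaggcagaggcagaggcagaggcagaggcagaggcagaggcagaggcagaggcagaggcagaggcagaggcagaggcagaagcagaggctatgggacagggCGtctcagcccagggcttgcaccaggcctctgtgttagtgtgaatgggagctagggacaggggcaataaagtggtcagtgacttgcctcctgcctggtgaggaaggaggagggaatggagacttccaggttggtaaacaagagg
The *Zic4* window held 26 CpGs at an observed to expected ratio of 0.893, and the *Fgfr2* window held 9 at a ratio of 0.361. The *Tmem125* window held 6 CpGs at a ratio of 0.304. The *Ddo* window held 2 CpGs and the *Gdpd5* window 1, with GC contents of 55.7% and 61.0%. Strong new peaks thus lay on CpG-rich and on CpG-poor DNA. The *Ddo* and *Gdpd5* windows consist in large part of short units repeated in tandem, and the *Tmem125* window repeats a longer unit. What repeats do to peaks there was not tested.

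Most new peaks were weak and narrow. Their median -log10 p was 13.7, with a highest value of 245, against 39.5 in the other *Ezh2* R685C peaks. The median fold enrichment over the local background was 8.44 in new peaks and 18.3 in the others, and the median width was 379 and 1036 bp. New peaks made up 61.5% of the list by number but 33.7% of its bases (6678 kb against 13128 kb). Of the new peaks, 4454 (32.6%) had a -log10 p of at most 12, and 2507 (18.3%) lay between 20 and 50. Another 206 lay between 50 and 100, and 43 were above 100. These values come from the library that chose the members and are a description. At the threshold of the list, the lowest -log10 p of a new peak was 10.01. At the threshold of the overlap, 228 new peaks lay within 100 bp of a WT peak, and 250 of the other peaks shared at most 100 bp with WT peaks. A list grows with the depth of its library, which is not known here: with the *Ezh2* R685C list cut to the length of the WT H3K27me3 list, 8944 new peaks remained, and at a p of at most 1e-20 there were 2756.

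**Figure D1:**
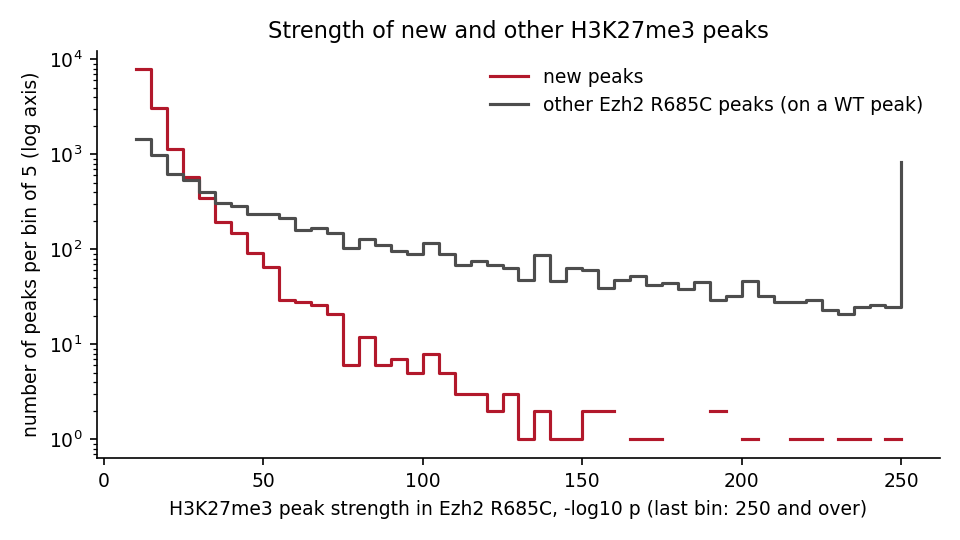
Number of *Ezh2* R685C H3K27me3 peaks (log axis) by their -log10 p, in bins of 5, for new peaks and for the other peaks, which lie on a WT H3K27me3 or SUZ12 peak. New peaks have a median of 13.7 and a maximum of 245, the others a median of 39.5, and peaks from 250 upward are gathered in the last bin.

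The 10 strongest new peaks lay by a mixed set of genes. The strongest (chr4:118219124-118219853, 730 bp, -log10 p 245, fold enrichment 73.5) was intergenic, 3005 bp from the TSS of *Tmem125*. The next pair (-log10 p 237 and 234) were in coding exons of the *Pcdha* cluster, whose genes encode protocadherins, adhesion proteins of neurons. Then came a peak (chr8:47293568-47295159, -log10 p 223) with its summit in a coding exon of *Slc25a4*, an ADP/ATP carrier of mitochondria. The next were in *Zfp92* on chromosome X, a zinc-finger gene (-log10 p 219), and at the TSS of *Fgfr2*, a receptor of fibroblast growth factors (chr7:137406702-137407992, -log10 p 202). They were followed by peaks in *Flt4*, the receptor VEGFR3 (192), by *Gm14845* on chromosome X (192), at *Sfi1*, a centrosome gene (174), and 78101 bp from *Plekhb2* (166). An *Ezh2* KO H3K27me3 peak overlapped each of these 10 peaks, and an *Ezh2* R685C SUZ12 peak overlapped 7 of them. The *Sfi1* peak differed from the rest in its fold enrichment of 11.3, the lowest among the 43 new peaks above a -log10 p of 100, whose median was 44.3. Copies of gene families such as *Pcdha* share sequence, and what unique alignment of reads does to peaks there was not tested. In those 43 peaks, 5 were on chromosome X and 6 in the *Pcdha* and *Pcdhb* clusters.

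New peaks were spread at all distances from WT sites, and few filled gaps between them. The median gap to the nearest WT H3K27me3 or SUZ12 peak was 14981 bp, and the quartiles were 2.44 and 66.3 kb. Of the new peaks, 2150 (15.7%, 95% CI 15.1 to 16.3) lay within 1 kb of a WT peak and 4607 (33.7%, 95% CI 32.9 to 34.5) within 5 kb. A WT peak stood within 5 kb on both sides of 1008 new peaks (7.37%). At the other end, 4080 (29.8%) were more than 50 kb away and 209 more than 1 Mb. The remaining 3 new peaks, on chromosome Y, had no WT peak on their chromosome. Closeness to WT peaks went up with strength: 11.9% of the new peaks with a -log10 p of at most 12 lay within 1 kb of a WT peak, 23.5% of those between 20 and 50, and 25.6% of those above 100. These strength classes were set after the values were seen.

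**Figure D2:**
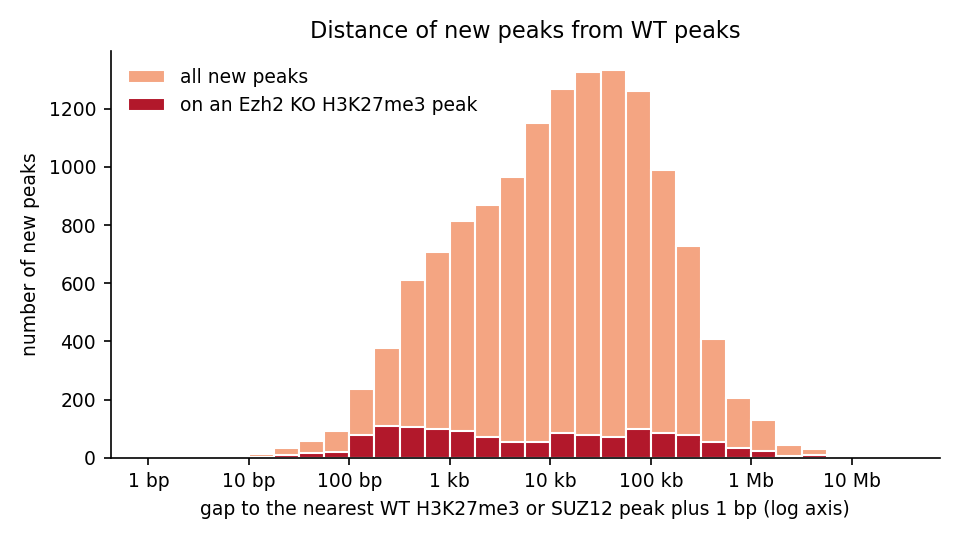
Gap between each new peak and the nearest WT H3K27me3 or SUZ12 peak (log axis), with new peaks that overlap an *Ezh2* KO H3K27me3 peak in the darker colour. The bulk of new peaks lies 1 kb or more from WT sites (median 14981 bp), while new peaks shared with *Ezh2* KO lie closer (median 6.23 kb).

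New peaks also gathered in clusters. Joining new peaks less than 1 kb apart gave 11048 domains, of which 9163 held 1 peak and 58 were at least 5 kb wide. The widest (chr2:25289725-25303751, 14027 bp, 10 peaks) ran along *Abca2*, a lipid transporter gene, and ended 0.466 kb from a WT peak. The next were in *Jag2*, a ligand of Notch (chr12:114146349-114160343, 13995 bp, 8 peaks), and in *Epha8*, an ephrin receptor (chr4:136485960-136499799, 13.8 kb, 10 peaks). Another lay in an intergenic stretch of chromosome 17 whose nearest protein-coding TSS was that of *Lemd2*, 95492 bp away (chr17:27430323-27443427, 13.1 kb, 12 peaks). The last of these was in *Grm4*, a glutamate receptor gene (chr17:27559963-27572855, 12.9 kb, 9 peaks). The chromosome 17 domains were 193 and 63.5 kb from the nearest WT peak. Counted in steps of 100 kb, the densest place was chr4:153600001-153700000 with 37 new peaks over *Megf6*, *Arhgef16* and *Prdm16*, a region that also held 4 WT peaks. The adjoining steps at chr17:27400001-27600000 held 35 and 36 new peaks and no WT peak. Those at chr12:113400001-113600000, which include *Kif26a*, held 32 and 30 new peaks with 9 and 1 WT peaks. Steps with at least 10 new peaks numbered 215 and held 3112 new peaks (22.7%).

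The marks of the other lines were then set beside the new peaks, beginning with H3K27me3. An *Ezh2* KO H3K27me3 peak, made in cells where EZH1 is the only EZH protein, overlapped 1345 new peaks (9.83%, 95% CI 9.34 to 10.3). In the other *Ezh2* R685C peaks the share was 63.6% (95% CI 62.6 to 64.6), and the *Ezh2* KO list covered 0.528% of the genome. The share climbed with the strength of the new peak, from 5.12% (95% CI 4.51 to 5.81) at a -log10 p of 10 to 12 to 19.7% (95% CI 18.2 to 21.3) at 20 to 50. It was 65.5% (95% CI 58.8 to 71.7) at 50 to 100, and 41 of the 43 new peaks above 100 were shared (95.3%, 95% CI 84.5 to 98.7). Strong new peaks were therefore mostly present in a line without EZH2 and with EZH1, while weak ones were mostly not called there. The climb was not particular to new peaks. In the other peaks the share was 30.7% to 35.8% in the classes up to 20, then 46.8%, 86.5% and 99.6%. The median width of new peaks also went from 281 bp in the weakest class to 1335 bp in the strongest, and its part was not tested. Looked at from the other list, 3357 *Ezh2* KO peaks were off the WT peaks, and 1107 of these (33.0%) lay on a new *Ezh2* R685C peak. The new peaks shared with *Ezh2* KO were wider than the rest (median 515 against 369 bp), and 21.9% of them against 10.1% had a CpG-rich summit, meaning a GC content over 50% and an observed to expected CpG ratio over 0.6 in 300 bp.

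H3K27me3 lists of the other lines held little of the set by count. *Ezh2* Y726D peaks overlapped 425 new peaks (3.11%, 95% CI 2.83 to 3.41), against 17 of the other peaks (0.199%, 95% CI 0.124 to 0.318), which turns round the order seen for *Ezh2* KO. The *Ezh2* Y726D list covered 0.0763% of the genome in bases, below its share of new peaks touched. Of these 425, 237 were also on an *Ezh2* KO peak. The *Ezh1/2* dKO list, with 53 peaks in all, overlapped 9 new peaks. No H3K27me3 peak of any of these 3 lines lay on 12150 new peaks (88.8%).

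SUZ12 was rarely called at new peaks. An *Ezh2* R685C SUZ12 peak overlapped 64 of them (0.468%, 95% CI 0.366 to 0.597), against 2557 of the other peaks (29.9%, 95% CI 28.9 to 30.8). The share was below 1% in each class up to a -log10 p of 50, 4.85% between 50 and 100, and 27.9% (95% CI 16.7 to 42.7) above 100, where 12 of 43 peaks had SUZ12. Of the other peaks above 100, 79.6% (95% CI 77.9 to 81.2) had SUZ12. Of the 64 peaks, 45 were on an *Ezh2* KO H3K27me3 peak, 30 were within 1 kb of a WT peak and 70.3% had a TSS within 5 kb. They include the peaks by *Tmem125*, *Slc25a4* and *Fgfr2*, by *Zic4*, a zinc-finger factor of the developing brain, and *H2-Q4*, a class I histocompatibility gene. HA-EZH1 peaks overlapped 52 new peaks (0.380%, 95% CI 0.290 to 0.498) against 28.7% of the other peaks. The untagged control, a shorter list (1291 against 4429 peaks), overlapped 29 new peaks (0.212%, 95% CI 0.148 to 0.304) and 1.04% of the other peaks. The intervals for new peaks overlapped. Of the HA-EZH1 peaks 1.17% lay on a new peak, and of the control peaks 2.25%. *Ezh2* Y726D SUZ12 peaks overlapped 77 (0.563%), *Ezh2* KO SUZ12 peaks 4, and *Ezh1/2* dKO SUZ12 peaks 4 (0.0292% each). The SUZ12 lists covered 0.176% (*Ezh2* R685C), 0.0889% (*Ezh2* Y726D), 0.0608% (*Ezh2* KO) and 0.00574% (*Ezh1/2* dKO) of the genome. The HA-EZH1 list covered 0.152% and its control 0.0163%. Except for *Ezh2* KO SUZ12, the shares of new peaks touched were above these genome shares in bases.

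**Figure D3:**
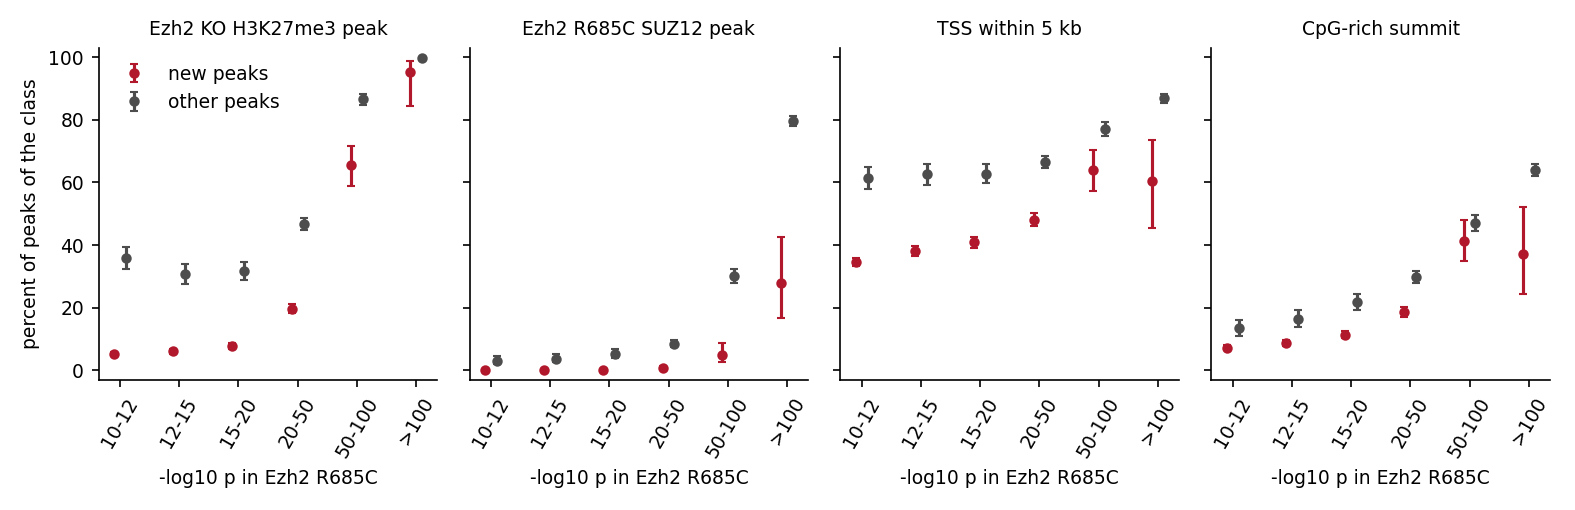
Percent of new and other *Ezh2* R685C H3K27me3 peaks, by class of -log10 p, that overlap an *Ezh2* KO H3K27me3 peak or an *Ezh2* R685C SUZ12 peak, have a TSS within 5 kb, or have a CpG-rich summit. Bars are 95% confidence intervals. From the weakest to the strongest class, the share with an *Ezh2* KO peak goes from 5.12% to 95.3% in new peaks and from 35.8% to 99.6% in the others.

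Few new peaks overlapped an H3K27ac peak of a mutant line. The *Ezh2* R685C H3K27ac list, the longest of the narrow peak lists with 41185 peaks, overlapped 139 new peaks (1.02%, 95% CI 0.861 to 1.2), less than the 1.88% of the genome that the list covers. None of the 249 new peaks above a -log10 p of 50 carried one. The *Ezh2* KO list, with 0.773% of the genome, overlapped 100 new peaks (0.731%). The *Ezh1/2* dKO list, with 0.434% of the genome, overlapped 172 (1.26%, 95% CI 1.08 to 1.46). The *Ezh2* Y726D list, with 40829 peaks and 1.32% of the genome, overlapped 619 (4.52%, 95% CI 4.19 to 4.89). The *Ezh1/2* dKO and *Ezh2* Y726D shares were thus above their genome shares. A share of peaks touched is not the same measure as a share of bases. In the other peaks, *Ezh2* Y726D H3K27ac was present on 16.8%.

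Broad regions of H3K27me1, H3K27me2 and ATAC-seq, an assay of open chromatin, were used as deposited. They were called loosely and cover between 11.6% and 24.3% of the chromosomes they list, so coverage is given in bases beside that share. The paper scaled histone-mark signals to a *Drosophila* spike-in and reports a global loss of H3K27me2 in *Ezh2* KO. In the same cells it reports a gain of H3K27me2 at Polycomb-bound promoters, and of H3K27me1 within poorly transcribed genes that lost H3K27me2. It does not describe the region calls as scaled in this way. Coverage therefore says where regions were listed, not how much of a mark a line held. In WT ESCs, H3K27me2 regions covered 18.7% of the bases of new peaks, against 14.2% of the chromosomes and 2.31% of the bases of the other peaks. WT H3K27me1 covered 6.48% of new peaks, below its 14.7% of the chromosomes, and 0.213% of the others. In *Ezh2* KO ESCs, listed H3K27me2 regions covered 91.8% of the bases of new peaks. They covered 98.5% of the other peaks and 16.1% of the chromosomes, and 11687 of 13680 new peaks (85.4%) were wholly inside one. *Ezh2* KO H3K27me1 covered 75.9% of new peaks, against 19.9% of the chromosomes and 37.1% of the other peaks. Both the new and the other *Ezh2* R685C peaks thus lay mostly in regions listed with H3K27me2 in cells with EZH1 alone, the other peaks more so, and H3K27me1 covered more of the new peaks. In *Ezh1/2* dKO ESCs, H3K27me2 covered 21.8% of new peaks and 24.1% of the chromosomes. In *Ezh2* Y726D ESCs it covered 32.7% and 23.8%. H3K27me1 regions covered 29.9% of new peaks in *Ezh1/2* dKO and 39.8% in *Ezh2* Y726D, against 11.6% and 12.6% of the chromosomes listed.

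These broad lists do not all hold the same chromosomes. On the 9 chromosomes present in every H3K27me1 and H3K27me2 list, *Ezh2* KO H3K27me2 covered 91.9% of new peaks and WT H3K27me2 17.6%. The blocks inside the regions, which mark their stronger parts, are far fewer. *Ezh2* KO H3K27me2 blocks covered 22.4% of new peaks and 70.8% of the others, with 0.804% of the chromosomes, while WT H3K27me2 blocks covered 0.0184% of new peaks. ATAC-seq regions covered between 55.9% and 58.0% of new peaks in the 4 lines, against 22.7% to 24.3% of the chromosomes and 60.8% to 63.6% of the other peaks. H3K27me1 regions of *Ezh1/2* dKO ESCs, which have no EZH protein, were thus also denser on new peaks than on the chromosomes. Base composition differed from the genome too, in new and other *Ezh2* R685C peaks alike. Summits of new peaks had a median GC content of 58.0% in 300 bp, against 41.8% in the genome, 52.3% at WT H3K27me3 summits and 48.7% at *Ezh2* R685C H3K27ac summits. The part of GC content in these overlaps was not tested.

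**Figure D4:**
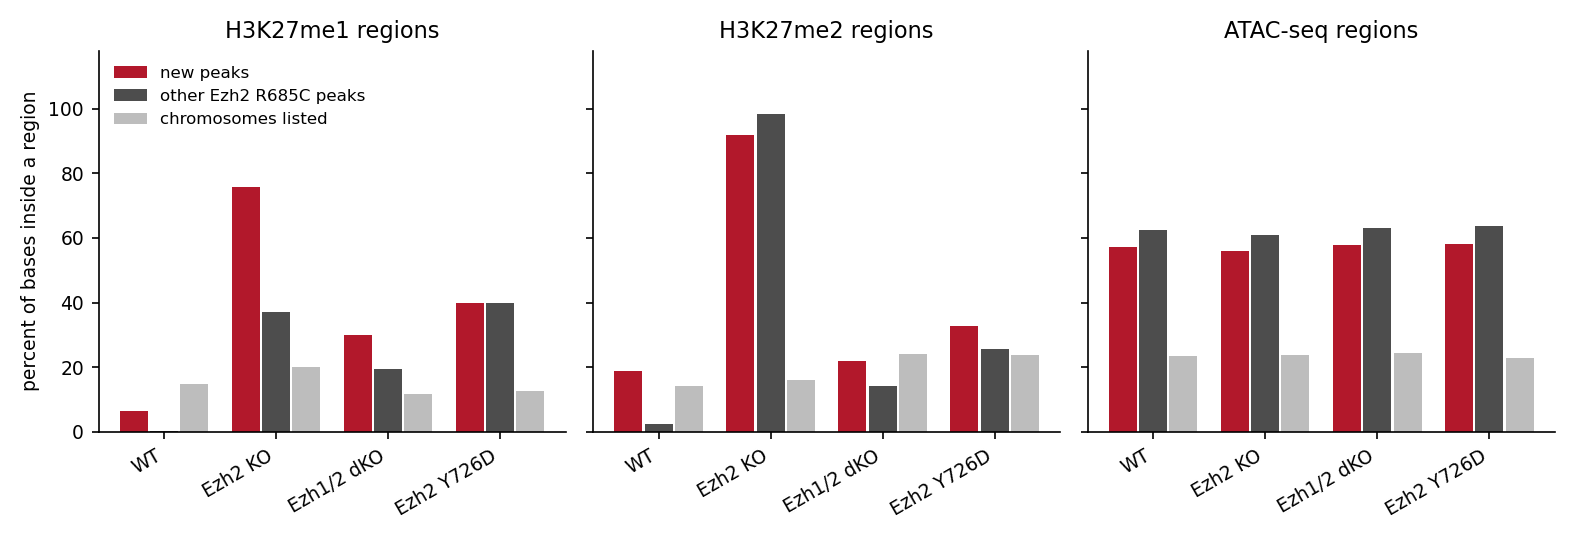
Percent of bases inside a listed H3K27me1, H3K27me2 or ATAC-seq region, for new peaks, the other *Ezh2* R685C peaks and the whole of the chromosomes each list holds. In *Ezh2* KO, H3K27me2 regions cover 91.8% and H3K27me1 regions 75.9% of new peaks, against 18.7% and 6.48% in WT. Coverage does not measure the amount of a mark.

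Taken over all strengths, CpG content was lower in new peaks than in the rest of the list. The median observed to expected CpG ratio was 0.322 in new peaks and 0.510 in the others, and 0.744 at WT SUZ12 summits. A CpG-rich summit was found in 1536 new peaks (11.2%, 95% CI 10.7 to 11.8), against 38.4% of the other peaks (95% CI 37.4 to 39.5). It was found in 7.30% of the weakest class of new peaks and in 41.3% of those with a -log10 p of 50 to 100. In the other peaks of these classes the shares were 13.5% and 47.1%. At a -log10 p of 10 to 12, 12 to 15 and 15 to 20 the median ratio was slightly higher in new peaks. It was 0.287, 0.303 and 0.337 there, against 0.250, 0.282 and 0.311 in the other peaks. In each class above 20 it was lower in new peaks. No CpG at all was present in the windows of 219 new peaks (1.60%).

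Promoters were less frequent in the set than in the rest of the list. A TSS lay within 5 kb of 5457 new peaks (39.9%, 95% CI 39.1 to 40.7) and of 72.6% of the other peaks (95% CI 71.7 to 73.5), while such windows cover 15.9% of the genome. By the position of the summit, 2149 new peaks (15.7%) lay within 1 kb of a protein-coding TSS, 2076 (15.2%) in a coding exon and 276 (2.02%) in a UTR. A further 4093 (29.9%) were intronic, 375 (2.74%) were in a gene of another type and 4714 (34.5%) were intergenic. Coding exons make up 1.35% of the genome. In the other peaks the share in coding exons was 10.7% and the share within 1 kb of a protein-coding TSS 40.4% (95% CI 39.4 to 41.5).

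In all, 3104 protein-coding genes (14% of 22193) had a new peak within 5 kb of a TSS. A WT H3K27me3 or SUZ12 peak was also within 5 kb at 1649 of them, and 1455 (46.9%) had none. The 10 genes with the strongest peak were *Tmem125*, *Pcdha11*, *Slc25a4*, *Fgfr2*, *Sfi1*, *Zic4*, *Cadm2*, a gene of synaptic adhesion, *Zfp516*, *H2-Q4* and *Duox2*, an oxidase that makes hydrogen peroxide. Their peaks ran from a -log10 p of 245 to 131, and 8 of the 10 had a WT peak within 5 kb as well. The exceptions were *Slc25a4* and *H2-Q4* (-log10 p 140). Among genes without a WT peak, chosen after their values were seen, *Slitrk4* on chromosome X (-log10 p 104) and *Slitrk1* (89.2), a pair of neuronal adhesion genes, also carried strong peaks.

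Among the lists of genes, imprinted genes, clustered protocadherins and germline genes had the highest shares with a new peak. Germline genes are genes of germ cells and meiosis, commonly silenced in other cells by DNA methylation of CpG-rich promoters. A new peak lay within 5 kb of a TSS in 7 of 10 (70.0%, against 14% of all protein-coding genes), and 6 of the 7 had no WT peak. The strongest lay over the TSS of *Ddx4*, an RNA helicase of germ cells (chr13:113441894-113442924, -log10 p 98.4), which also had a WT peak within 5 kb. *Dazl*, an RNA-binding protein of germ cells (chr17:50432455-50433741, -log10 p 88.5), *Mael*, a gene of the piRNA pathway (chr1:168168145-168169335, 76.9), and *Brdt*, a testis bromodomain protein (chr5:107759833-107760892, 54.5), had the peak at the TSS and no WT peak. CpG ratios at these 4 summits were between 0.646 and 0.969. The peaks at *Ddx4*, *Dazl* and *Mael* overlapped an *Ezh2* KO H3K27me3 peak and that at *Brdt* did not. *Piwil2*, *Sycp3* and *Tex101* had weaker peaks (33.2, 29.3 and 29.0).

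Imprinted genes are genes of which only the allele from 1 parent is active. A new peak was near 14 of 17 (82.4%), and 6 of these had no WT peak. Examples are *Igf2*, a fetal growth factor (-log10 p 67.4), *H19*, the noncoding RNA next to it (34.5), *Grb10*, an inhibitor of growth factor signals (30.2), and *Mest* (26.2). Each of these 4 peaks was on an *Ezh2* KO H3K27me3 peak. Clustered protocadherins had a new peak in 18 of 24 genes in all, with 6 lacking a WT peak. The leading members were *Pcdha11* (237), *Pcdhb10* (117), *Pcdhb11* (104) and *Pcdhb2* (104). Neighbouring genes of a cluster can share a peak, so these counts are not independent. Keratin and keratin-associated genes had a new peak in 36 of 96 (37.5%), 25 of them without a WT peak, led by *Krt4* (50.6), *Krt12* (35.2), *Krt78* (32.0) and *Krt14* (28.4).

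Some classical Polycomb targets, already marked in WT, had new peaks beside their WT peaks. Of all 4462 protein-coding genes with a WT peak, 1649 also had a new peak. That share is larger than those of the *Hox* genes and of the study's loci given next. Among the 39 *Hox* genes, which all had a WT peak, 7 had a new peak nearby (17.9%), the strongest within 5 kb of both *Hoxb3* and *Hoxb4* (57.3). Of the 15 loci that the study used to show Polycomb binding, all with a WT peak, 3 had one (20%): *Fgfr3* (25.8), *Mmp25* (22.7) and *Olig3* (12.1). Primitive endoderm genes had one in 3 of 7 (42.9%), *Pdgfra* (30.6), *Gata4* (19.3) and *Dab2* (10.1), all with a WT peak. Of the pluripotency genes, 1 of 9 had one, *Dppa3* (14.1). Among the PRC2 subunits, 3 of 11 had one: *Ezh1* (chr11:101056701-101057102, 61.1), *Ezh2* (17.9) and *Phf19* (15.4). *Ezh1* and *Ezh2* had no WT peak, and both are genes that were edited in this line.

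Large gene families near or below the 14% of all protein-coding genes were counted as well. Solute carriers had a new peak in 63 of 353 (17.8%) and *Zfp* genes in 39 of 361 (10.8%). Olfactory receptors had one in 23 of 1085 (2.12%), led by *Olfr279* (25.5), *Cyp2* genes in 1 of 47, UDP-glucuronosyltransferases in 1 of 21 and beta-defensins in 1 of 41. Vomeronasal receptors had none in 317.

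Chromosome X differed from the autosomes. It carried 279 new and 115 other peaks (70.8% new, against 54.2% to 72.1% on autosomes), at 1.67 new peaks per Mb against 2.63 to 9.51. Of its new peaks 38.0% were on an *Ezh2* KO H3K27me3 peak, where the autosomes ranged from 2.95% to 13.3%. Its new peaks had a median -log10 p of 15.4, and 26 exceeded 50, more than on any other chromosome. The WT H3K27me3 list itself held few peaks there: 87 of 16754 (0.519%), against 294 of 8956 in *Ezh2* KO (3.28%), 394 of 22245 in *Ezh2* R685C (1.77%) and 2.18% of the WT SUZ12 list. This list held 0.522 peaks per Mb on X against 3.86 to 9.41 on autosomes, and its part in the number of new peaks on X was not tested. Among the autosomes, chromosome 8 had the highest share of new peaks (72.1%) and chromosome 18 the lowest (54.2%).

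RNA-seq could be read only in the other lines, so it says how genes with a new peak are expressed in WT and in the other mutant lines, not in *Ezh2* R685C cells. Levels are normalized counts, reads divided by a size factor of the library. Libraries held between 3604123 and 5181553 reads in the table. The cells were ESCs by their markers: the summed level of 8 ESC markers was 14780 and 15588 in WT and 13190 to 15245 in the mutant lines. *Ezh2* was at 598 and 546 in WT, 1.05 and 0.968 in *Ezh2* KO, 0.824 and 1.78 in *Ezh1/2* dKO and 422 and 613 in *Ezh2* Y726D. *Ezh1* ranged from 14 to 24.1 in the 4 libraries of the *Ezh1* KO lines, where *Ezh2* KO cells had 372 and 378 and WT cells 227 and 377. Of 3938 genes with a new peak, 2738 were in the RNA-seq table and 1781 passed a mean of 5 normalized counts over all 8 libraries. Genes expressed in 1 line only can pass through that line, so counts below describe those that passed.

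Genes with a new peak were low in WT. Per kb of exon, the median WT level was 3.84 normalized counts in 1212 genes with a new and no WT peak, and 1.88 in 1526 genes with both. It was 2.71 in 2579 genes with a WT peak alone and 44.2 in 12110 genes with neither. At most 1 normalized count per kb was found in 32.4% of the genes with a new and no WT peak and in 12.4% of those with neither.

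Against WT, genes were called with limma at a Benjamini-Hochberg adjusted p under 0.1 and a log2 fold change of at least 1 in size. In *Ezh1/2* dKO ESCs, 183 of the 1781 genes with a new peak rose (10.3%), where 3.63% of all 13872 genes tested rose. Another 6 fell (0.337%, against 0.389% of all genes). Their median log2 fold change was 0.63, against 0.01 over all genes. Restricted to the 786 genes without a WT peak, 76 rose (9.67%), and of 1715 genes with a WT peak and no new peak 189 rose (11%). Of 10092 genes with neither, 124 rose (1.23%). In *Ezh2* Y726D ESCs, 94 genes with a new peak rose (5.28%, against 1.66% of all genes) and 19 fell (1.07%, against 1.06%). Without a WT peak, 27 rose (3.44%) and 12 fell (1.53%). In *Ezh2* KO ESCs, 4 rose (0.225%, against 0.0937%) and 9 fell (0.505%, against 0.310%). The genes that fell include the edited genes: *Ezh2* in *Ezh2* KO, *Ezh1* and *Ezh2* in *Ezh1/2* dKO, and *Ezh1* in *Ezh2* Y726D. Their fall was set by the editing and is counted in these shares. The comparisons share the WT libraries, and quantile normalization changed the *Ezh1/2* dKO split to 105 higher and 17 lower and that of *Ezh2* KO to 1 and 4. Leaving out either *Ezh1/2* dKO library brought the calls in that line down to 2 genes, both lower, and leaving out the second *Ezh2* Y726D library brought that line from 113 to 57. In *Ezh2* KO the 13 calls became 1 to 33 with 1 library left out. In bulk RNA, fewer cells of a type and less RNA per cell cannot be told apart.

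Germline genes with a new peak rose in *Ezh1/2* dKO in 5 of 7 cases. *Brdt* was at 0 and 0.963 in WT, 17.8 and 15.5 in *Ezh2* KO, 51.9 and 67.5 in *Ezh1/2* dKO, and 8.92 and 15.7 in *Ezh2* Y726D. It rose in all 3 lines (log2 fold change 3.65, 5.43 and 3.20 ± 0.56 SE, adjusted p 0.0403, 0.00585 and 0.0324), and no mutant library overlapped WT. *Tex101*, a surface protein of germ cells, was at 2.67 and 9.63 in WT and at 93.1 and 68.4 in *Ezh1/2* dKO (log2 fold change 3.69 ± 0.58 SE, adjusted p 0.0217). *Dazl* was at 219 and 93.4 in WT and at 397 and 426 in *Ezh1/2* dKO (adjusted p 0.0628). *Piwil2*, a PIWI protein, was at 62.7 and 59.7 in WT, 216 and 211 in *Ezh1/2* dKO and 197 and 168 in *Ezh2* Y726D, with both differences called. *Mael* rose in the same lines, from 104 and 71.2 in WT to 211 and 163 in *Ezh1/2* dKO and 225 and 274 in *Ezh2* Y726D (adjusted p 0.0937 and 0.0467). *Ddx4* (113 and 93.4 in WT, 212 and 144 in *Ezh1/2* dKO) and *Sycp3*, a protein of the meiotic chromosome axis, were not called in any line. Of all 10 germline genes, 5 rose in *Ezh1/2* dKO and 3 in *Ezh2* Y726D, and 1 in *Ezh2* KO.

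**Figure D5:**
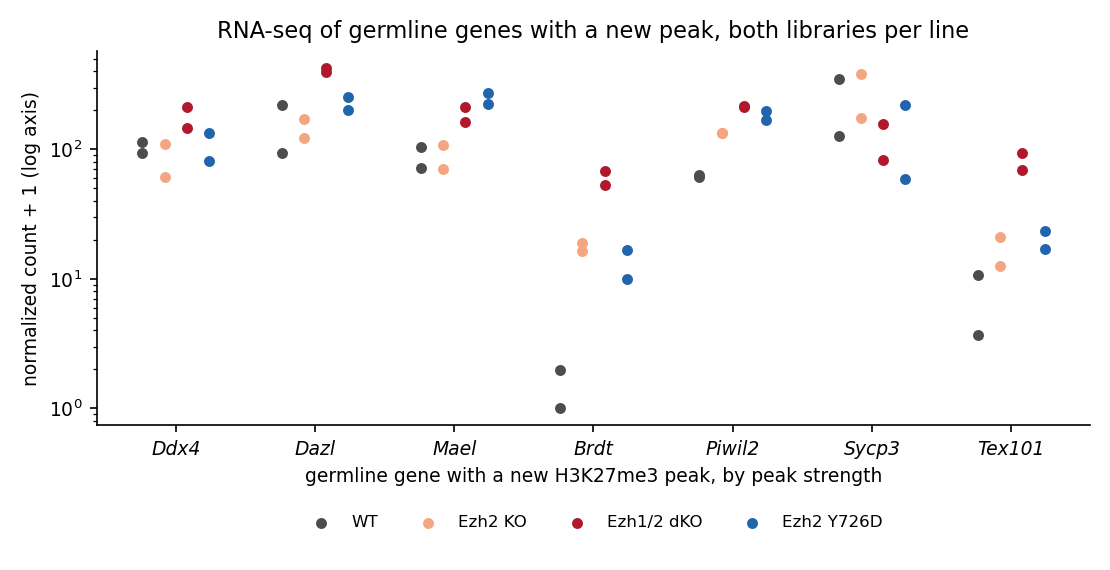
Normalized counts plus 1 (log axis) of the 7 germline genes with a new H3K27me3 peak, in each RNA-seq library, ordered from the strongest peak on the left. Each point is 1 library, and *Brdt* stands at 0 and 0.963 normalized counts in WT and at 51.9 and 67.5 in *Ezh1/2* dKO.

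Imprinted genes with a new peak did not move together. *Plagl1*, a growth-restraining zinc-finger gene, was at 227 and 187 in WT, 23.0 and 33.9 in *Ezh2* KO and 6.24 and 11.2 in *Ezh2* Y726D, and fell in both lines (adjusted p 0.0223 and 0.00197). *Phlda2*, a placental growth regulator, was at 211 and 195 in WT and rose in *Ezh2* Y726D to 595 and 398 (adjusted p 0.0342). Of the 11 imprinted genes with a new peak that were tested, none was called in *Ezh1/2* dKO by limma.

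The 10 genes with a new peak and the largest called changes, with both libraries beyond both WT libraries, included *Ezh2*, *Ezh1*, *Brdt* and *Plagl1*, and 5 of the 10 were listed at 0 in both WT libraries. *Alppl2*, an alkaline phosphatase, was listed at 0 in both WT libraries and at 38.7 and 84.4 in *Ezh1/2* dKO, at least 17.9-fold higher than a floor of 3 reads per WT library. *Vnn1*, a pantetheinase, was listed at 0 in WT and at 42.9 and 74.6 in *Ezh1/2* dKO, at least 17.0-fold higher. Both had a new peak (-log10 p 17.9 and 21.2, against a median of 13.7 in all new peaks) and no WT peak. *Hoxd13* (at 0 in WT, 33.8 and 23.1 in *Ezh1/2* dKO, 27.6 and 31.3 in *Ezh2* Y726D) and *Olig3* (at 0 in WT, 16 and 24.6 in *Ezh2* Y726D), developmental transcription factors, rose with a WT peak beside the new one. *Lmcd1* (at 0 in WT, 21.4 and 17.8 in *Ezh1/2* dKO) rose as well. *Inpp4b*, a lipid phosphatase, fell in *Ezh2* KO from 42.7 and 8.67 to 0 and 0 (adjusted p 0.0633). For the strongest new peaks, WT cells had 24 and 12.5 normalized counts of *Fgfr2*, against 1.05 and 3.87 in *Ezh2* KO (adjusted p 0.182). *Slc25a4* was expressed in all libraries, at 500 to 1040 normalized counts.

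Markers of other cell types moved in the same lines. The summed level of 5 primitive endoderm markers was 9.34 and 28.9 in WT and 71.0 and 110 in *Ezh1/2* dKO, with 1 of 3 tested markers higher. That of 5 trophectoderm markers was 164 and 203 in WT, 474 and 597 in *Ezh1/2* dKO and 437 and 912 in *Ezh2* Y726D, with 2 of 4 tested markers higher in each line. Much of the 912 was *Cdx2*, at 33 and 440 in *Ezh2* Y726D and at 70.7 and 9.63 in WT, so its libraries overlapped WT. The summed level of 3 fibroblast markers, nearly all of it *Thy1*, was 4.81 and 12 in WT and 98.1 and 115 in *Ezh1/2* dKO. The 1 marker tested was higher there and in *Ezh2* Y726D (sums of 86.2 and 88.3), and *Col1a2* was at 0 in both WT libraries. Sums of 4 epiblast and mesoderm markers (58.7 to 78.0 in WT, 116 to 190 in *Ezh2* Y726D) and of 3 neural markers (72.2 to 90.7 in WT, 138 to 180 in *Ezh1/2* dKO) held no called marker. Their part in the changes of genes with a new peak was not tested.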

How the data were processed

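ChIP-seq, ATAC-seq and RNA-seq of mouse ESC lines were used. Reads of both chromatin assays were mapped by the authors to mm9 (Bowtie), cleared of duplicates (Picard) and turned into peaks (MACS2). The deposited peak lists give a fold enrichment and a -log10 p per peak, at a p of at most 1e-10. Broad lists give a -log10 p per region, and the HA lists hold positions only. The depth behind the lists is not known, and 1 list was used for each line and target. For RNA-seq the authors deposited normalized counts, a signal per gene that equals read counts divided by a size factor. Dividing each of the 8 columns by the value of a single read returned whole reads for 100% of values, within 0.01 reads. Tables of the authors' own comparisons (fold changes and p-values) were not used.

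Overlap needed 1 bp, and genes came from GENCODE M1 on the same build, with a TSS window of 5 kb. Of 18055 symbols of the RNA-seq table, 16570 were matched by symbol and 857 by synonym. Python 3.11.15 with pandas 2.3.3 and pysam 0.24.0 was used. RNA-seq was tested with limma 3.58.1 in R 4.3.3 on log2 of the normalized count plus 1, on all 8 libraries, for genes with a mean of at least 5, and fold changes are on that scale. The whole reads also went into edgeR 4.0.16, which called 568 genes over the whole table in *Ezh1/2* dKO, 327 in *Ezh2* Y726D and 30 in *Ezh2* KO, and into DESeq2 1.42.0, which called 594, 479 and 144. The design planned a test on counts or, for normalized values, on a log scale, and the second was used. The labels do not say that replicates came from separate cultures, so p-values measure the spread between these libraries. Replicate numbers did not pair the libraries (correlations of deviations -0.41 to 0.29). Counting is not stated to use strand, so a gene and an antisense partner cannot be told apart. The interval and RNA-seq calculations were tested on simulated data. Samples labelled for Y726D with and without the *Ezh1* knockout were treated as 1 line.

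Members and lists were chosen with earlier results of these data known. Named genes are those nearest the 10 strongest new peaks, the 10 protein-coding genes with the strongest peak within 5 kb, those at the 5 widest domains and 5 densest 100 kb places, up to 10 called genes with the largest changes, and examples of fixed lists (*Hox*, the study's Polycomb loci, PRC2 subunits, pluripotency, germline, imprinted and primitive endoderm genes, and gene families). *Ddo*, *Gdpd5*, *Slitrk4*, *Slitrk1* and the cell-type markers fall outside this rule; the first 4 were chosen after their values were seen. Repeat content, RING1B, H2AK119ub, WT H3K27ac, input DNA and the EZH2 rescue and drug-treated samples were not analysed here.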

Additional observations from a re-analysis of the deposited data

How the results depend on the processing

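Of 89 alternatives run, 32 stayed close to the reported value and 57 moved, where close means inside the 95% interval of a share or coverage, computed from the number of peaks, or within 1.5 times of a count; the cause was not tested unless fewer peaks or genes explain it by construction. The number of new peaks (13683) was 2756 at a p of at most 1e-20 and 8944 with the *Ezh2* R685C list cut to the length of the WT H3K27me3 list. With new peaks at a p of at most 1e-20, the share with a TSS within 5 kb was 49.5%, with *Ezh2* R685C SUZ12 1.56%, with *Ezh2* KO H3K27me3 24.3%, with *Ezh2* Y726D H3K27me3 3.48% and within 1 kb of a WT peak 23.6%. The coverage was then 15% by WT H3K27me2, 94.7% by *Ezh2* KO H3K27me2, 6.08% by WT H3K27me1 and 59.3% by WT ATAC-seq. With new peaks more than 1 kb from WT peaks, these shares were 36.5% (TSS), 0.295% (SUZ12), 7.82% (*Ezh2* KO) and 3.62% (*Ezh2* Y726D), and the coverage 21% by WT H3K27me2, 90.5% by *Ezh2* KO H3K27me2 and 7.66% by WT H3K27me1. With new peaks merged into domains they were 10.7% (*Ezh2* KO), 3.49% (*Ezh2* Y726D) and 18.3% (within 1 kb of WT). Counting other lists within 1 kb gave 1.82% (*Ezh2* R685C SUZ12), 1.91% (*Ezh2* R685C H3K27ac), 15.6% (*Ezh2* KO) and 3.73% (*Ezh2* Y726D), and other lists at a p of at most 1e-20 gave 0.0658%, 0.343%, 4.22% and 1.2%. TSS windows of 2 and 10 kb gave 26.3% and 53.9%, and protein-coding TSSs alone 35.2%. Windows of 500 bp and 5 kb around WT peaks gave 9.58% and 33.7%. Blocks in place of whole broad regions covered 0.0184% (WT H3K27me2), 22.4% (*Ezh2* KO H3K27me2), 1.36% (WT H3K27me1) and 0.334% (WT ATAC-seq).

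Genes with a new peak called in *Ezh2* KO (13) were 21 with a pseudocount of 0.1, 5 without a filter, 5 with quantile normalization, 4 with edgeR (0 higher, 4 lower), 34 with DESeq2 and 6 with only the 2 lines compared. Those called in *Ezh1/2* dKO (189) were 122 with quantile normalization, and those in *Ezh2* Y726D (113) were 11 with only the 2 lines compared. Genes without a WT peak made up 8, 79 and 39 of the calls in the 3 lines. With 1 library left out, *Ezh2* KO had 1 to 33 calls, *Ezh1/2* dKO 2 to 192 and *Ezh2* Y726D 57 to 131; the lone library left in a line is then assumed to vary like the others. With the replicate number as a replicate block, the calls were 6, 184 and 96; the numbers do not pair the libraries (correlations of deviations from -0.41 to 0.29). With 1 list for each line and target, no spread between ChIP-seq libraries could be measured, and the depth behind the lists is not known.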
